A study of Mus musculus with 9 samples.

Results

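Transcription factors that mark or direct granulosa cells, the somatic cells that surround the oocyte in an ovarian follicle, were followed in juvenile mouse ovaries. They were taken by symbol from the deposited tables: Foxl2, Wt1, Gata4, Gata6, Nr5a1, Nr5a2, Runx1, Irx3, Irx5 and Emx2, which are 10 of the 52025 genes listed, and each symbol was found once. The ovaries came from Kunming mice, an outbred strain, with no engineered allele or treatment named in the labels, on postnatal days (PD) 14, 15 and 16, with 3 libraries for each day and 9 in all. The study used this window because the first wave of follicles forms its antrum then, and the 3 days were compared to see which genes change over that step. The labels name granulosa cells as the source and ovary as the tissue, whereas the study's methods describe RNA from ovaries. The study calls the 3 ovaries of a day biologically independent, and the sources used here do not say which animal each came from. The p-values therefore measure the spread between ovaries.

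Granulosa cells are the female counterpart of the Sertoli cells of the testis, and both arise from the cells that cover the fetal gonad. WT1, EMX2, GATA4 and NR5A1 are needed to build the gonad in either sex. FOXL2 and RUNX1 then hold the granulosa fate, and FOXL2 goes on repressing testis genes in the adult ovary. In growing follicles GATA4, GATA6 and the nuclear receptors NR5A1 (SF-1) and NR5A2 (LRH-1) drive genes of steroid and hormone production, while IRX3 and IRX5 act in the contact between granulosa cells and oocyte.

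Depth was estimated at 20.3 to 28.7 M fragments per library from the size of the smallest steps between values. All 18 granulosa cell markers examined were detected, with a summed level of 3601 to 4546 FPKM (fragments per kilobase of transcript per M mapped fragments). The libraries were no pure granulosa cell sample, since 18 oocyte markers summed to 1646 to 2419 FPKM and 12 markers of theca and interstitial cells, the steroid-making layer outside the follicle, to 1504 to 2626 FPKM. In such bulk RNA, fewer cells of a type and less RNA per cell cannot be told apart.

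The gene that passed the test between days was Emx2, whose mean was 18.4 FPKM on PD14 and 18.5 on PD15 and fell to 13.5 on PD16. The other 9 differed between days by less than the test across all genes could separate, although several had libraries that did not overlap. Tests were made on log2(FPKM + 1) with limma, a linear model that shares information on spread across genes, over the 15495 genes whose mean of any day exceeded 1 FPKM. A gene was called when its p, after Benjamini-Hochberg adjustment over all of these genes, was under 0.05.

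Between PD14 and PD15, limma called 0 of the 10 factors, against 0.678% of all genes tested. At an unadjusted p under 0.05 there were 4 of 10 (Foxl2, Nr5a1, Irx3 and Irx5), against 14.7% of all genes. Between PD14 and PD16, 1 of 10 was called, against 4.25% of all genes in either direction and 1.89% lower, and 6 of 10 were under an unadjusted p of 0.05 (Wt1, Gata4, Gata6, Nr5a1, Irx3 and Emx2), against 22.8%. Between PD15 and PD16, 1 of 10 was called, against 0.729% in either direction and 0.297% lower. At an unadjusted p under 0.05 there were 6 of 10 (Foxl2, Wt1, Gata4, Gata6, Nr5a2 and Emx2), against 14.1%. Across the 3 days at once, limma's F test called 1 of 10, against 3.03% of all genes, and 8 of 10 were under 0.05 before adjustment, against 22.3%. The mean was lower on PD16 than on PD14 for 8 of the 10 factors, against 47.7% of all genes tested, and the exceptions were Nr5a2 and Runx1. The median difference over the 10 was -0.02 for PD15 minus PD14, -0.23 for PD16 minus PD14 and -0.21 for PD16 minus PD15 on the log2 scale, where the median over all genes was 0.01 each time.

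Levels, which FPKM scales for transcript length, ran in the order Foxl2, Nr5a2, Gata4, Nr5a1, Gata6, Wt1, Emx2, Irx3, Runx1 and Irx5. In each neighbouring pair of this order the first gene was the higher in 9 of 9 libraries, by a ratio of means from 1.22 for Foxl2 over Nr5a2 to 3.28 for Emx2 over Irx3. The ranges over the 9 libraries nevertheless overlapped for 3 neighbouring pairs: Foxl2 and Nr5a2, Nr5a1 and Gata6, and Gata6 and Wt1. Foxl2 on PD14 stood at the 98.1 percentile of the genes tested and Irx5 at the 19.6 percentile, so the set spans most of the range of expressed genes. The summed level of the 10 was 486 to 532 FPKM on PD14, 512 to 557 on PD15 and 455 to 489 on PD16, the sums of PD16 lying below those of PD15 and overlapping those of PD14.

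**Figure D1:**
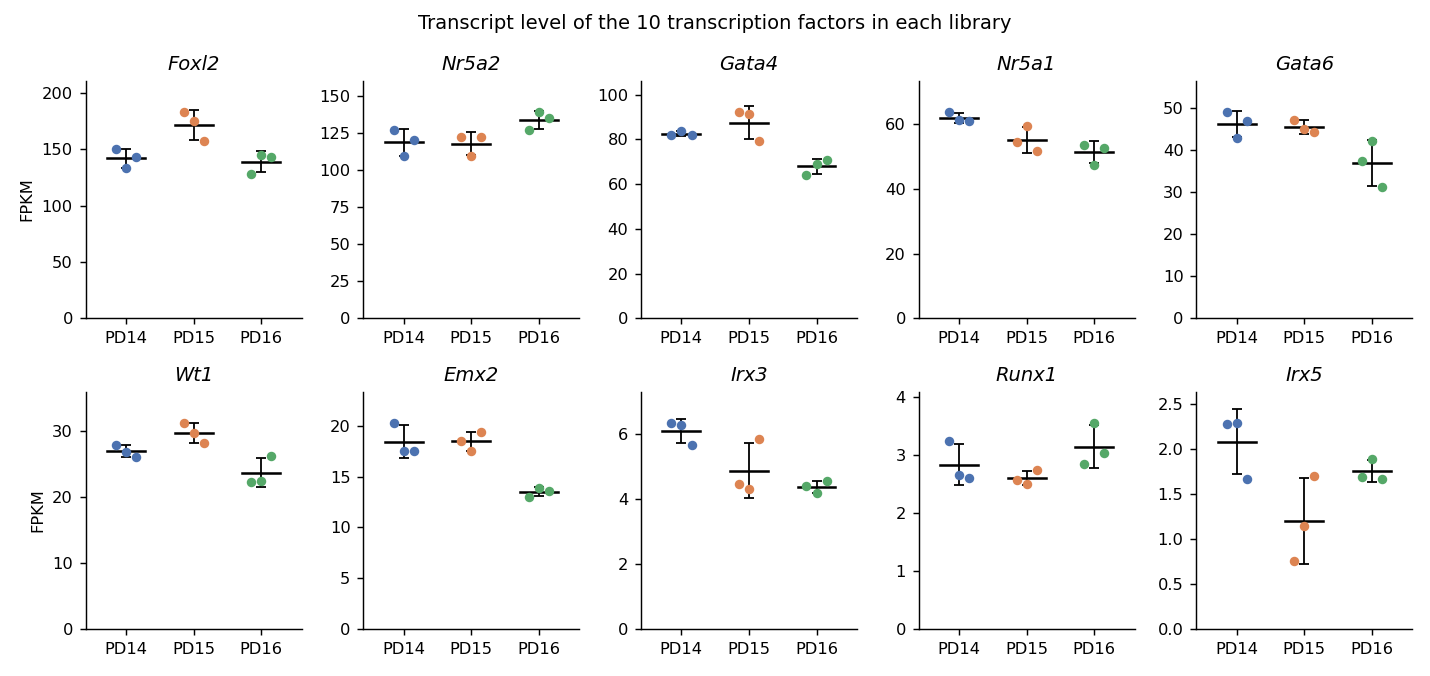
FPKM (vertical axes, each starting at 0) of the 10 transcription factors on PD14, PD15 and PD16. Points are single libraries, bars the mean and SD of 3 libraries. Emx2 lies at 13.0 to 13.9 FPKM in the PD16 libraries and at 17.5 to 20.3 in the other 6, while Foxl2 is highest on PD15.

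Foxl2, the forkhead factor that keeps granulosa cells from taking a testicular fate, was the most abundant of the set. It lies on chromosome 9 (chr9:98955288-98958543, GRCm38, plus strand). Its levels in the 3 libraries were 149.9, 133 and 143 FPKM on PD14, 183, 175 and 157 on PD15, and 128, 145 and 143 on PD16. All PD15 libraries were above all libraries of both other days, which overlapped each other. The difference PD15 minus PD14 was 0.27 on the log2 scale (SE 0.09, 95% interval 0.08 to 0.46), with a limma adjusted p of 0.191, and PD16 minus PD15 was -0.30 (SE 0.09, adjusted p = 0.150). Between PD14 and PD16 the difference was -0.03 (95% interval -0.23 to 0.16), so a change of that size or less in either direction was not separable. An antisense gene, Foxl2os, shares 12 exon bases with Foxl2, 0.369% of its exon length, and was at 27.3 to 48.9 FPKM. Whether reads were counted by strand is not given in the sources used here.

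Wt1, a zinc finger factor needed to form the gonad and later present in granulosa cells of small follicles, lies at chr2:105126529-105173616 (plus strand). Its levels were 27.8, 26.8 and 26.0 FPKM on PD14, 31.2, 29.7 and 28.2 on PD15, and 22.3, 22.4 and 26.2 on PD16. The libraries of PD15 were above those of both other days, and one PD16 library reached into the range of PD14. By limma, PD15 minus PD14 was 0.14 (SE 0.07, adjusted p = 0.413), PD16 minus PD14 was -0.18 (adjusted p = 0.172) and PD16 minus PD15 was -0.32 (SE 0.07, adjusted p = 0.0815). For each factor alone, the days were set against one another by exact permutation of the F statistic over the 280 ways to split 9 libraries into 3 groups of 3, whose smallest possible p is 0.00357. Wt1 had an exact p of 0.00714, the lowest of the 10, and Foxl2 one of 0.0250, both without adjustment. This test was run on the 10 factors alone, so no share of all genes stands beside its p-values, which are given as a description of each gene.

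The zinc finger factors Gata4 and Gata6 bind the same core sequence and act together in follicle growth and steroid synthesis. Gata4 (chr14:63198922-63271692, minus strand) was at 82.1, 83.9 and 81.8 FPKM on PD14, 92.3, 91.3 and 79.1 on PD15, and 64.1, 69.0 and 70.6 on PD16. Gata6 was at 49.0, 42.9 and 46.8 FPKM on PD14, 47.2, 44.9 and 44.2 on PD15, and 37.4, 42.2 and 31.2 on PD16. For both genes every PD16 library was below every library of the earlier days, which overlapped each other. The mean of Gata4 went from 82.6 ± 1.13 (SD, n = 3) on PD14 to 67.9 ± 3.41 on PD16, a limma difference of -0.28 (SE 0.07, adjusted p = 0.0620), and PD16 minus PD15 was -0.36 (SE 0.07, adjusted p = 0.0631). Gata6 differed by -0.33 (SE 0.10, adjusted p = 0.0976) between PD14 and PD16 and by -0.30 (adjusted p = 0.211) between PD15 and PD16. PD15 minus PD14 was 0.08 for Gata4 and -0.02 for Gata6. An antisense gene, 1010001N08Rik, shares 93 exon bases with Gata6 and was at 3.51 to 5.65 FPKM.

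The nuclear receptors Nr5a1 and Nr5a2 recognise one and the same DNA element and both switch on steroidogenic genes. Nr5a1, a regulator of gonad and adrenal development that theca cells also express, lies at chr2:38692656-38714542 (minus strand) and had levels of 63.8, 61.3 and 60.9 FPKM on PD14, 54.4, 59.6 and 51.6 on PD15, and 53.7, 47.5 and 52.8 on PD16. Nr5a2, which in the ovary is largely a granulosa cell gene and is needed for ovulation, lies at chr1:136842571-136960448 (minus strand) and had levels of 127, 109 and 120.0 FPKM on PD14, 122, 109 and 122 on PD15, and 127, 139 and 135 on PD16. Every PD14 library of Nr5a1 was above every later library, and the PD15 and PD16 libraries overlapped. Nr5a2 was higher in all PD16 libraries than in those of PD15, with overlap between PD14 and each later day. In the limma fit Nr5a1 differed by -0.17 (SE 0.07, adjusted p = 0.320) on PD15 and by -0.27 (SE 0.07, adjusted p = 0.0662) on PD16 against PD14. Nr5a2 differed by -0.01 and by 0.17 (SE 0.08, adjusted p = 0.245) on the same days.

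RefSeq promoter windows (GRCm38.p6, 250 bases before to 50 after a start) were found for 5 of the 10 factors: Nr5a2, Irx3, Foxl2, Runx1 and Emx2, with 7 windows in all. They were searched on both strands for the core letters bound by families of the set: AGATAA for GATA factors, AAGGTCA for NR5A, GTAAACA for FOX, TGTGGT for RUNX, TAATTA for EMX, ACANNTGT for IRX and GCGTGGGNG for WT1. Of the 7 windows, 4 held at least 1 match, and those of Foxl2 and Irx3 held none. Singly, these motifs occur in 1.90% (WT1) to 16.8% (RUNX) of all 32851 windows. The share of all windows that hold any of them was not counted, so 4 of 7 cannot be read as a trait of these promoters. Of the Nr5a2 windows, the one farther upstream held 2 GATA matches, which begin 217 and 200 bases before the start (chr1:136960648-136960677 and chr1:136960631-136960660, minus strand) and are shown because Nr5a2 had its highest mean on PD16, where Gata4 and Gata6 had their lowest. No difference of Nr5a2, Gata4 or Gata6 between days was called in the main limma fit, and a link between these genes was not tested. AGATAA or its complement occurs in 11.2% of all 32851 windows of this length. The capitals mark the match, which is a description of the letters and no evidence of binding.
Nr5a2, first match: atttctttgccaTTATCTgccaagagttct
Nr5a2, second match: tgccaagagttcTTATCTcttttgctgtca

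Runx1, a runt-domain factor that acts beside FOXL2 in fetal granulosa cells, was among the low members. It lies at chr16:92601466-92826149 (minus strand) and had levels of 3.23, 2.65 and 2.60 FPKM on PD14, 2.56, 2.50 and 2.73 on PD15, and 2.83, 3.55 and 3.03 on PD16. The PD16 libraries were above those of PD15 and overlapped those of PD14. PD16 minus PD15 was 0.20 (limma adjusted p = 0.370) and PD16 minus PD14 was 0.11 (adjusted p = 0.505). The window at one of its starts held 2 RUNX matches, which begin 28 and 36 bases after the start (chr16:92826029-92826058 and chr16:92826025-92826054, minus strand). They are shown because the factor's own core letters stand there, as they do in 16.8% of all windows, and capitals mark the match in each stretch. The window of the other start held 1 WT1 match, a motif found in 1.90% of windows.
Runx1, first match: acctcataaacaACCACAgaaccacaagtt
Runx1, second match: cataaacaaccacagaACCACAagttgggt

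The Iroquois homeobox genes Irx3 and Irx5 lie 556 kb apart on chromosome 8 (chr8:91798525-91802067, minus strand, and chr8:92357625-92376286, plus strand). They act together in granulosa cells, and loss of both disturbs the contact with the oocyte. Irx3 was at 6.35, 6.28 and 5.67 FPKM on PD14, 4.47, 4.31 and 5.85 on PD15, and 4.39, 4.18 and 4.55 on PD16. Irx5 was at 2.28, 2.29 and 1.66 FPKM on PD14, 0.754, 1.14 and 1.70 on PD15, and 1.69, 1.89 and 1.67 on PD16. Every PD16 library of Irx3 was below every PD14 library, whereas 1 PD15 library of Irx3 lay among those of PD14. The libraries of Irx5 overlapped between any 2 days. Irx3 differed by -0.40 (SE 0.10, 95% interval -0.62 to -0.18) between PD14 and PD16, with a limma adjusted p of 0.0514, and by -0.28 (adjusted p = 0.219) between PD14 and PD15. Irx5 differed by -0.50 (SE 0.16, adjusted p = 0.184) between PD14 and PD15 and by 0.34 (adjusted p = 0.357) between PD15 and PD16. Irx5 rested on an estimated 60 to 175 fragments per library, a counting error of up to 12.9% of a value, against 9459 to 15157 fragments for Foxl2. Because 1 is added before the logarithm, these differences understate the change of low genes such as Irx5.

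Emx2, an empty spiracles homeobox gene required for the urogenital tract and the early gonad, lies at chr19:59458372-59465357 (plus strand). Its levels were 20.3, 17.5 and 17.5 FPKM on PD14, 18.5, 17.5 and 19.4 on PD15, and 13.0, 13.9 and 13.6 on PD16. The ranges of PD14 and PD15 covered each other, and all PD16 libraries lay below both. The mean was 18.4 ± 1.60 (SD, n = 3) on PD14, 18.5 ± 0.974 on PD15 and 13.5 ± 0.443 on PD16, a drop of 26.9% from PD14 and of 27.0% from PD15. On the log2 scale Emx2 fell by 0.42 against PD14 (SE 0.07, 95% interval -0.58 to -0.27), with a limma adjusted p of 0.0177, and by 0.43 against PD15 (SE 0.07, adjusted p = 0.0378). PD15 minus PD14 was 0.00 (95% interval -0.15 to 0.16). The adjusted p of the F test was 0.0224, and the exact permutation p over 280 groupings was 0.0321. Without PD16 replicate 1 the adjusted p against PD14 was 0.0689, and the call against PD15 was lost without any 1 of 7 libraries, PD14 replicate 3 or any library of PD15 or PD16, with adjusted p from 0.0564 to 0.127. The F test of Emx2 was lost without PD14 replicate 3, PD15 replicate 1 or any library of PD16, with adjusted p up to 0.0829.

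Emx2 rested on an estimated 931 to 1673 fragments per library. Its antisense gene Emx2os shares 264 exon bases with it, 8.79% of the exon length of Emx2, but was at 0.723 to 1.18 FPKM and differed by 0.14 between PD14 and PD16 (limma adjusted p = 0.498). The promoter window of Emx2 is 64.3% G and C and held 1 EMX match, 36 bases after the start (chr19:59458710-59458739, plus strand). It is shown because Emx2 is the member that fell, and its capitals mark letters found in 5.29% of all windows.
Emx2, match: tatgtgatccccgcacTAATTAggctcatg

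**Figure D2:**
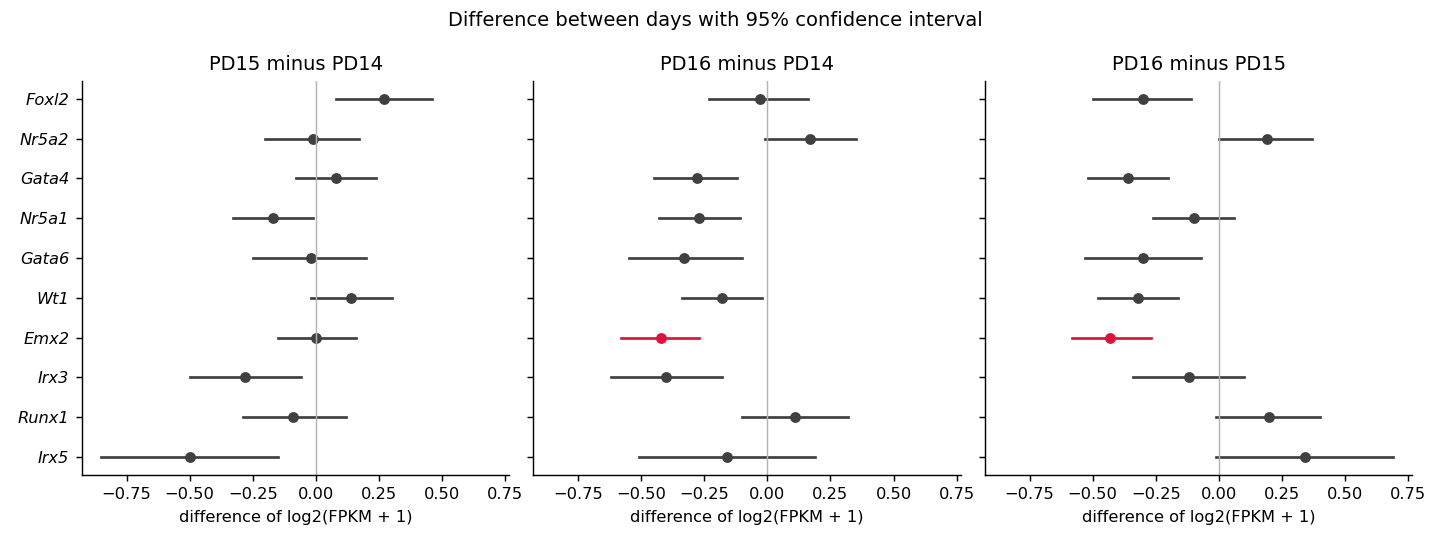
Differences of log2(FPKM + 1) between days for the 10 factors, with 95% confidence intervals from limma. Red marks an adjusted p under 0.05 and grey the others. Emx2 is red at -0.42 for PD16 minus PD14 and at -0.43 for PD16 minus PD15, and no factor is red for PD15 minus PD14.

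Whether libraries of a pair of days overlapped at all was also counted. Between PD14 and PD15 the libraries did not overlap for 3 of 10 factors, with Foxl2 and Wt1 higher on PD15 and Nr5a1 lower, against 20.6% of all genes tested in either direction, 10.4% higher and 10.2% lower. Between PD14 and PD16 there were 5 of 10, all lower on PD16 (Gata4, Gata6, Nr5a1, Irx3 and Emx2), against 13.5% of all genes lower and 28.5% in either direction. Between PD15 and PD16 there were 7 of 10, against 19.6% in either direction. Of these, Foxl2, Wt1, Gata4, Gata6 and Emx2 were lower on PD16, against 9.73% of all genes, and Nr5a2 and Runx1 were higher, against 9.85%. The comparisons share libraries and the factors are measured in the same RNA, so these counts are not independent of one another. With 3 libraries against 3, an exact test of a single gene between 2 days cannot go below p = 0.10.

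The paralogs of the set were set against each other within each library. The ratio of FPKM is free of any factor common to both genes, whereas the quantity tested, a difference of log2(FPKM + 1), is so only for genes well above 1 FPKM, which Irx5 is not. The FPKM ratio of Gata4 to Gata6 was 1.68, 1.96 and 1.75 on PD14, 1.96, 2.03 and 1.79 on PD15, and 1.71, 1.63 and 2.27 on PD16. The days overlapped, and the exact permutation test of the log2 difference gave p = 0.764. Both GATA genes had their lowest mean on PD16, and no shift between them was separable.

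The ratio of Nr5a1 to Nr5a2 was 0.501, 0.562 and 0.508 on PD14, 0.445, 0.549 and 0.422 on PD15, and 0.423, 0.341 and 0.391 on PD16. All PD16 ratios were below all PD14 ratios, and the range of PD15 reached into both. The mean ratio was 0.523 ± 0.0335 (SD, n = 3) on PD14 and 0.385 ± 0.0410 on PD16, so the balance moved toward Nr5a2. The exact permutation p was 0.0321, and 0.0482 after adjustment over the 3 paralog pairs. It was lost, with adjusted p up to 0.188, when any 1 of 7 libraries was left out, those being all but PD15 replicates 2 and 3.

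The ratio of Irx3 to Irx5 was 2.78, 2.74 and 3.41 on PD14, 5.92, 3.77 and 3.43 on PD15, and 2.60, 2.21 and 2.72 on PD16. The FPKM ratios of the 3 days did not overlap, PD15 being the highest and PD16 the lowest, although PD14 and PD15 overlapped by 1 library on the log2(FPKM + 1) scale. The mean log2 difference was 1.21 ± 0.10 on PD14, 1.43 ± 0.18 on PD15 and 0.97 ± 0.11 on PD16 (SD, n = 3 each), with an exact permutation p of 0.00714 and an adjusted p of 0.0214. Leaving out PD14 replicate 1 or 2, PD15 replicate 1 or PD16 replicate 2 brought the adjusted p to between 0.0536 and 0.0857. The low fragment number of Irx5 bears on this ratio as on the gene itself.

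**Figure D3:**
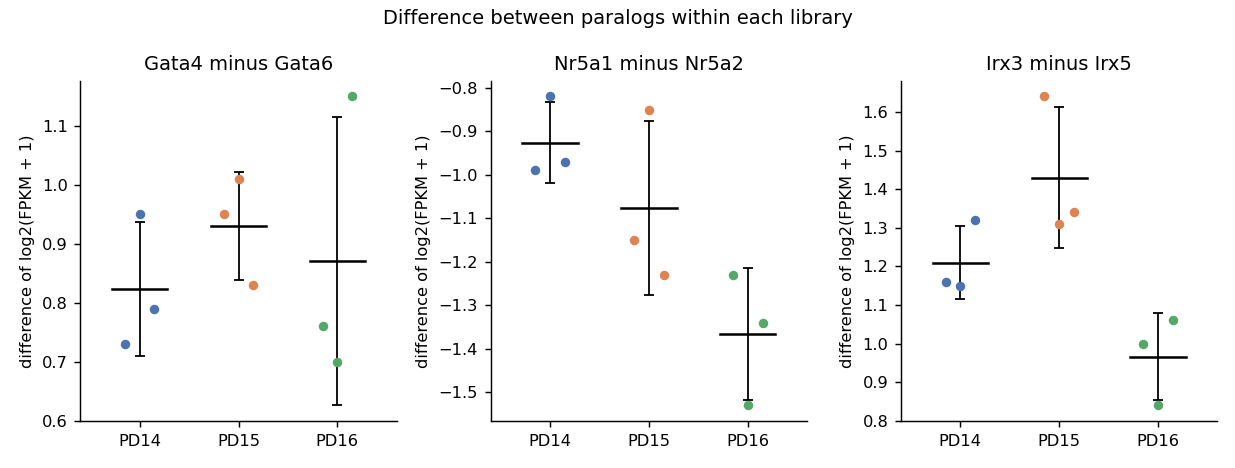
Difference of log2(FPKM + 1) between the paralogs of each pair, by library, with the mean and SD of 3 libraries as bars. The vertical axes do not start at 0. Nr5a1 minus Nr5a2 goes from a mean of -0.92 on PD14 to -1.37 on PD16, Irx3 minus Irx5 is highest on PD15 at 1.43, and the days of Gata4 minus Gata6 overlap.

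Proteins that bind or counter these factors were examined as a list of 37 cofactors, partners and antagonists, of which 25 were expressed highly enough to test. Between PD14 and PD16, 1 of the 25 rose and none fell by limma, with a median of -0.05 on the log2 scale. This is near the background, since 2.36% of all genes tested were called higher and 1.89% lower between these days. It was Foxo1, a forkhead factor of granulosa cells that insulin and FSH signalling restrain, which went from 31.9, 27.8 and 30.4 FPKM on PD14 through 44.2, 43.2 and 36.9 on PD15 to 58.1, 54.0 and 60.3 on PD16. No libraries of Foxo1 overlapped between days, and the rise to PD16 was 0.92 (limma adjusted p = 0.00419), which held without any 1 library. Cited2, a coactivator that works with WT1 in the early gonad, fell by 0.54 between PD14 and PD15 (adjusted p = 0.0377), a call lost without any 1 of 7 libraries, with adjusted p up to 0.136. Zfpm2 (FOG2), the partner of GATA4, was at 8.33 to 10.5 FPKM, and Cbfb, the partner of RUNX1, at 39.0 to 47.6, with limma adjusted p of 0.565 and 0.706 between PD14 and PD16. Nr0b1 (DAX1), a repressor of NR5A1, was at 9.75 to 12.8 FPKM on PD14, 7.15, 6.09 and 9.07 on PD15, and 8.59, 7.99 and 7.17 on PD16, each later library being below each PD14 library (PD16 minus PD14 -0.41, adjusted p = 0.122). Lhx9, a homeobox gene of the early gonad, was at 1.21 to 1.70 FPKM with no separation of the days.

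Among 32 genes named as targets of these factors in granulosa cells, 31 were tested and 8 were called between PD14 and PD16, 5 higher and 3 lower, against 4.25% of all genes tested in either direction, and the list median was -0.09. The count of 8 was 3 without PD14 replicate 1, 2 without PD14 replicate 3 and 1 without PD16 replicate 1, and 6 to 8 without any other library. With no filter on low values the count was 3. Among those that rose were the receptors Esr2 (estrogen receptor beta) and Bmpr1b (a BMP receptor), the hormone Amh (anti-Müllerian hormone) and Foxo1. Esr2 went from 46.7, 55.2 and 53.9 FPKM on PD14 to 71.5, 71.3 and 75.9 on PD16, a limma difference of 0.48 (adjusted p = 0.0151). Amh, a target of both GATA4 and NR5A1 and a product of growing follicles, was at 186, 175 and 168 FPKM on PD14, 261, 243 and 222 on PD15, and 256, 235 and 244 on PD16, 0.47 higher on PD16 than on PD14 (adjusted p = 0.0223). Between PD14 and PD16 Amh was higher while the means of Gata4 and Nr5a1 were lower. On PD15 Amh was already 0.45 above PD14 (limma adjusted p = 0.0522), where Gata4 differed by 0.08 and Nr5a1 by -0.17. From PD15 to PD16, where Gata4 differed by -0.36, Amh differed by 0.02. Bmpr1b rose by 0.47 between PD14 and PD16 (limma adjusted p = 0.0240).

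The 3 targets that fell between PD14 and PD16 were Cyp19a1, Kitl and Akr1c18. Cyp19a1 (aromatase, the enzyme of estrogen synthesis and a target of NR5A1, NR5A2 and FOXL2) was at 6.61, 3.77 and 4.95 FPKM on PD14, 2.84, 2.47 and 3.51 on PD15, and 2.54, 2.69 and 1.89 on PD16, and fell by 0.84 to PD16 (limma adjusted p = 0.0316). Kitl, the granulosa cell ligand for the oocyte's Kit receptor, fell by 0.50 (limma adjusted p = 0.0494). The Kitl call was lost in 8 of 9 runs that left out 1 library and under 6 of 10 other processing settings. Akr1c18, an enzyme that inactivates progesterone, was at 10.5, 4.73 and 8.95 FPKM on PD14, 17.9, 19.7 and 23.2 on PD15, and 1.95, 2.55 and 1.89 on PD16. Its libraries did not overlap between days. It was the only target called higher on PD15 than on PD14, by 1.28 (limma adjusted p = 0.0458). This call was lost without any 1 of 7 libraries and under 7 of 10 other processing settings. Akr1c18 was also the only target called lower on PD16 than on PD15. That difference of -2.76 (limma adjusted p = 0.00149) held without any 1 library. Targets that passed no test included Fshr (the FSH receptor) at 11.6 to 21.2 FPKM, Inha (the inhibin alpha subunit) at 1779.8 to 2629 and Star (cholesterol import for steroid synthesis) at 3.44 to 8.18. Of the calls in the lists beyond the 10 factors, marker lists included, 2 of 17 between PD14 and PD16 (Foxo1 and Rspo1) kept an adjusted p under 0.05 in all 9 runs that left out 1 library. Of the 6 calls between PD15 and PD16, 1 did (Akr1c18), and of the 6 between PD14 and PD15, 0 did.

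The genes that decide between ovary and testis formed a list of 20, of which 14 were tested. Between PD14 and PD16, Esr2 rose and Wnt4 and Rspo1, the secreted activators of the ovarian beta-catenin pathway, fell, 3 calls of 14 against 4.25% of all genes tested, with a list median of -0.13, and 1 call remained without PD16 replicate 1. Wnt4 was at 35.4, 31.8 and 38.4 FPKM on PD14, 39.9, 29.9 and 32.7 on PD15, and 19.1, 23.3 and 22.2 on PD16. Like those of Emx2, its PD16 libraries lay below all others, with differences of -0.68 from PD14 (limma adjusted p = 0.0195) and -0.63 from PD15 (adjusted p = 0.0484, lost in each run that left out 1 library). Rspo1 was at 6.38, 6.96 and 7.37 FPKM on PD14, 4.07, 4.66 and 4.08 on PD15, and 3.83, 3.98 and 4.24 on PD16, with differences from PD14 of -0.58 on PD15 (limma adjusted p = 0.0158) and -0.65 on PD16 (adjusted p = 0.00583). The call on PD15 was lost without PD14 replicate 2 or 3 or PD15 replicate 1, with adjusted p up to 0.0893. Sox9 and Dmrt1, testis genes that FOXL2 represses, were at 0.553 to 1.08 and 0.0151 to 0.0606 FPKM and were under the level needed for a test.

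**Figure D4:**
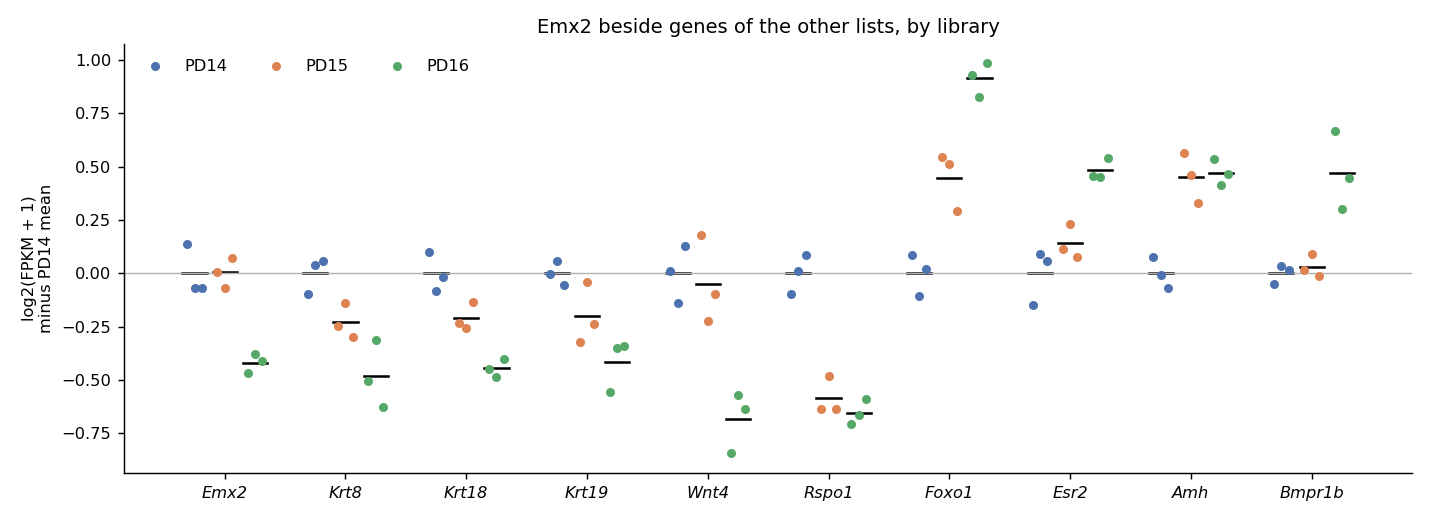
Log2(FPKM + 1) of Emx2 and of 9 genes of the other lists in each library, less the mean of PD14. Points are libraries coloured by day and black lines the means of 3 libraries. Emx2, the keratins and Wnt4 are lowest on PD16, Rspo1 is low on both later days, and Foxo1 reaches 0.92 on PD16.

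Several of the 10 factors are also made outside granulosa cells, so markers of the other ovarian cells were read in the same libraries. Of 12 markers of the surface epithelium, the cell layer that covers the ovary, 9 were tested. The keratins Krt8, Krt18 and Krt19 fell between PD14 and PD16, by 0.48, 0.45 and 0.42 (limma adjusted p = 0.0222, 0.0121 and 0.0335), and none rose, 3 calls of 9 against 1.89% of all genes called lower. The count was 1 without PD14 replicate 2 or 3 and 0 without PD16 replicate 1. Krt18 was at 10.8, 9.40 and 9.89 FPKM on PD14, 8.36, 8.22 and 9.05 on PD15, and 7.08, 6.86 and 7.33 on PD16. The summed level of the 12 was 62.4 to 71.9 FPKM on PD14, 56.6 to 65.3 on PD15 and at most 54.1 on PD16, below every earlier sum, with 2 markers below 1 FPKM in all libraries and none at 0. The mesothelial markers Upk3b and Msln did not fall with the keratins between PD14 and PD16. Upk3b was at 7.76 to 13.4 FPKM (PD16 minus PD14 0.05) and Msln at 1.72 to 3.82 (0.11). Of the 9 tested, 5 had a lower and 4 a higher value on PD16 than on PD14 (median -0.09). Lrrn4 (-0.09) and Cdh1 (-0.20) were among the lower. Between PD15 and PD16, 8 of the 9 had a lower value (median -0.17), Upk3b (-0.09) and Msln (-0.17) included. Krt8 and Krt18 were lower in every PD15 library than in every PD14 library, as were 10.2% of all genes tested. Their differences were -0.23 and -0.21 (limma adjusted p = 0.253 and 0.179). Krt19 overlapped between these days (-0.20, limma adjusted p = 0.330), and Emx2 differed by 0.00. The part of the keratins in the drop of Emx2 was not tested.

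The summed level of the oocyte markers was highest on PD15, as were Foxl2 and Wt1. The sums were 1779 to 2212 FPKM on PD14, 2278 to 2419 on PD15 and 1646 to 1789.8 on PD16. Of the 18, 14 had a higher and 4 a lower value on PD15 than on PD14 (median 0.20). On PD16, 15 had a lower value than on PD14 (median -0.22) and 18 a lower value than on PD15 (median -0.36). By limma, 1 was called on PD15 against PD14 (Nlrp5, higher) and 1 on PD16 against PD14 (Bmp15, higher), against 0.678% and 4.25% of all genes, and 2 were called between PD15 and PD16 (Zp2 and Nlrp5, lower), against 0.729%. These calls were lost in 6 of 9 runs that left out 1 library for Nlrp5 on PD15 and for Bmp15, and between PD15 and PD16 in 8 runs for Zp2 and 7 for Nlrp5. Granulosa cell markers summed to 3814 to 4546, 3601 to 3916 and 3667 to 4344 FPKM on the 3 days, which overlap, and Inha alone made 1779.8 to 2629 FPKM of these sums. Of the 18, 5 were called between PD14 and PD16, with Amh and Esr2 higher and Cyp19a1, Kitl and Kctd14 lower, against 4.25% of all genes tested in either direction. This count was 3 or fewer without any 1 of 7 libraries (all but PD14 replicate 2 and PD15 replicate 3) and 0 without PD16 replicate 1. Ihh was called higher on PD15 than on PD14 (0.65, limma adjusted p = 0.0473). None of the 12 theca and interstitial or 8 endothelial markers was called in any comparison. Of all genes, 0.678% were called for PD15 against PD14, 4.25% for PD16 against PD14 and 0.729% for PD16 against PD15. Theca and interstitial sums were 1965 to 2626 FPKM on PD14, 1506 to 2121 on PD15 and 1504 to 1967 on PD16. Of these 12, 9 had a lower value on PD15 than on PD14 (median -0.11), and 6 did on PD16 (median 0.03). In the lists of other cells, the hemoglobin gene Hba-a1 fell by 1.35 between PD14 and PD15 (limma adjusted p = 0.0381), Lyz2, a gene of macrophages and neutrophils, rose by 0.74 between PD14 and PD16 (adjusted p = 0.0286), as did Cnn1, a smooth muscle gene, by 0.61 (adjusted p = 0.0348), and the stromal gene Mfap5 rose by 0.51 between PD15 and PD16 (adjusted p = 0.0462). In the blood cell list that holds Lyz2, 7 of 9 tested markers had a lower value on PD16 than on PD14 (median -0.34). These were the red cell gene Alas2 (-0.34), the hemoglobin genes (-0.45 to -1.84), Cd68 (-0.11) and Csf1r (-0.04). The 2 with a higher value were Lyz2 and the macrophage gene Adgre1. Adgre1 was at 0.620 to 0.931 FPKM on PD14 and 1.09 to 1.33 on PD16 (0.27, limma adjusted p = 0.233). Of the smooth muscle markers 0 of 6 had a lower value on PD16 than on PD14 (median 0.23), and of the endothelial markers 8 of 8 did (median -0.16), against 47.7% of all genes whose mean was lower. Endothelial sums were 95.3 to 109.7 FPKM on PD14 and 82.7 to 90.7 on PD16, and blood cell sums were 120.5 to 161 on PD14, 64.5 to 84.6 on PD15 and 82.5 to 134 on PD16. The part of these shifts in the values of the 10 factors was not tested.

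The genes whose levels followed Emx2 most closely over the 9 libraries were named by Pearson's r of log2(FPKM + 1), as a description. The first was a transcript model with no gene symbol, 1 of 1339 such entries in the tables, with r = 0.988. It was at 28.8, 26.4 and 27.2 FPKM on PD14, 27.8, 26.1 and 29.6 on PD15, and 19.5, 21.2 and 20.2 on PD16, and the ratio of Emx2 to it stayed between 0.644 and 0.704. Its position and any exons shared with Emx2 were not analysed here. Next came Dync1i1, a dynein subunit, with r = 0.949 and mean levels of 3.01, 2.68 and 1.72 FPKM, and Tmem151a with r = 0.947 and 1.19, 1.16 and 0.897 FPKM. Among the other factors, r with Emx2 was 0.81 for Gata4 and Gata6, 0.78 for Wt1, 0.67 for Irx3, 0.58 for Nr5a1 and 0.52 for Foxl2, and it was below 0 for Irx5 (-0.07), Runx1 (-0.37) and Nr5a2 (-0.52). These 9 points share their libraries and depth and hold 3 libraries of each day.

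**Figure D5:**
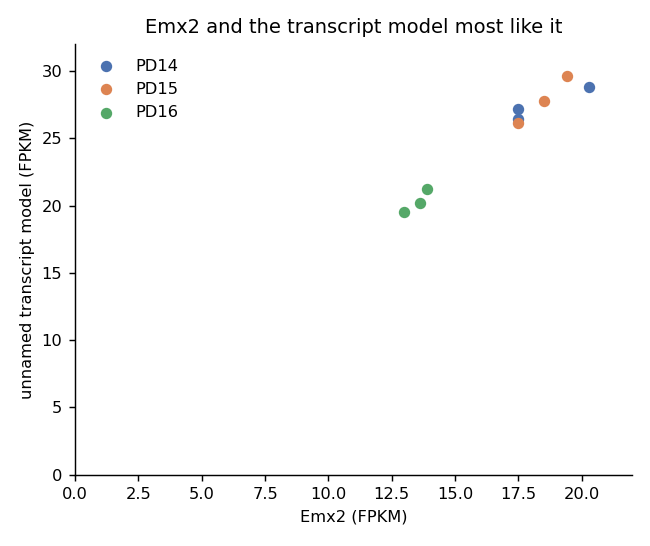
FPKM of Emx2 (horizontal axis) and of the transcript model without a symbol that followed it most closely (vertical axis) in the 9 libraries, coloured by day. The 3 PD16 libraries lie apart at the lower left, at 13.0 to 13.9 FPKM of Emx2 and 19.5 to 21.2 of the model.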

How the data were processed

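RNA from mouse ovaries on PD14, PD15 and PD16 was sequenced by the authors from TRIzol extracts with a NEBNext Ultra library kit. The processing notes name HISAT2 2.0.5 and the mm10 build, while the counting tool, its strand setting and the annotation are not given in the sources used here. The authors deposited FPKM in 1 table per library, and no value was altered before analysis. In each library 95.9% to 96.5% of low values were whole multiples of a single fragment within a tolerance of 0.03, given exon lengths from GENCODE M21 for 50376 of 52025 genes, which gave the depths.

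Values were tested as log2(FPKM + 1) in limma 3.58.1 (R 4.3.3) with an intensity trend, over the 15495 genes whose mean of any day exceeded 1 FPKM, and all 10 factors passed this filter. All 9 libraries entered a single fit with the day as group, with Benjamini-Hochberg adjustment over all genes tested. The script was tested on simulated data. Single genes and 3 paralog differences were compared by exact permutation tests (Python 3.11.15, NumPy 2.4.6, SciPy 1.17.1, pandas 2.3.3), and figures were drawn with Matplotlib 3.10.9. Libraries correlated at r = 0.985 to 0.990 within a day and at 0.977 to 0.984 between days. Positions are from GENCODE M21 (GRCm38) and promoter windows from RefSeq (GRCm38.p6).

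The 10 factors and the gene lists were chosen with earlier results of these data known. The text names all 10 factors, the genes of the lists with an adjusted p under 0.05, a chosen group of cofactors, targets and sex fate genes, and the 3 genes most like the factor with the smallest F test p. The values of 1 gene of the target list are not reported here. The mesothelial markers, Emx2os and the other antisense genes were added after their values were seen. Alternatives covered the pseudocount, the filter, the scaling, the limma settings, the libraries fitted, a replicate block and leaving out each library. The same settings for genes of the other lists were added after seeing the data.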

Additional observations from a re-analysis of the deposited data

How the results depend on the processing

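The count of factors called between PD14 and PD15 was 0 under every alternative run. For PD16 against PD14 the count of 1 became 2, with Irx3 joining Emx2, under a filter at a mean FPKM above 5, under equal library totals (TPM) and with the 6 libraries of those days alone, and ran from 0 (without PD16 replicate 1) to 3 (without PD15 replicate 3) when single libraries were left out. For PD16 against PD15 it became 0 without a filter and in limma without a trend, and ran from 0 to 1 when libraries were left out. In that comparison Emx2 kept its call in 2 of 9 runs that left out 1 library. Without PD15 replicate 3 the 1 factor called there was Gata4 and not Emx2. For the F test the count became 0 without a filter and 2 at a mean FPKM above 5, where Gata4 joined Emx2. The F test count ran from 0 to 3 when libraries were left out. Without PD16 replicate 3 the 1 factor called was Wt1 and not Emx2. Over other alternatives the adjusted p of Emx2 ran from 0.0112 to 0.0486 against PD14 and from 0.0296 to 0.0940 against PD15. The number of factors under an exact p of 0.05, a test run on the 10 alone with no share of all genes to set beside it, was 6 and ran from 3 to 7 without single libraries, and the number of paralog pairs called from 0 to 2.

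Over all genes, the F test called 469 genes and 95 without a filter (100 to 354 without single libraries). PD15 against PD14 gave 105 and became 29 without a filter, 63 at a mean FPKM above 5 and 46 with the libraries of those days alone (3 to 92 without single libraries). PD16 against PD14 gave 659 and became 172 without a filter, 417 with equal totals and 323 with the libraries of those days alone (92 to 660 without single libraries). PD16 against PD15 gave 113 and became 24 without a filter (14 to 125 without single libraries). With equal totals the split of the 417 was 207 higher and 210 lower, against 366 and 293.

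No pairing of the libraries by replicate number was visible over all genes tested. The deviations of same-numbered libraries correlated at -0.21 to 0.16 over 9 pairs and those of other numbers at -0.20 to 0.21. These correlations cannot exclude a pairing that acts on few genes. With a replicate block the F test called 127 genes and 0 of the 10 factors, PD15 against PD14 called 24, PD16 against PD14 called 227, and PD16 against PD15 called 56 and 0 of the 10 factors.

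Differences near 0 changed sign: PD15 minus PD14 of Emx2 was -0.01 with equal totals and -0.03 to 0.07 without single libraries, that of Nr5a2 was -0.07 to 0.04, that of Gata6 -0.08 to 0.02, and PD16 minus PD14 of Foxl2 was -0.08 to 0.02. The cause of these shifts was not tested. Counting error covers only part of the spread and is largest for Irx5.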

Other observations

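Relatives of the factors within their families were mostly near 0. Emx1 was at 0 to 0.191 FPKM, Runx3 at 0.00827 to 0.0881, Gata5 at 0 to 0.0720, and Irx1, Irx2, Irx4 and Irx6 stayed at or under 0.108 FPKM in every library. Runx2 was at 0.333 to 0.593 and Gata3 at 0.148 to 0.323 FPKM. Among the GATA relatives that were tested, Gata1 was at 1.13 to 2.16 FPKM and Gata2 at 0.900 to 1.30. In every library Gata4, Gata6, Irx3, Irx5, Runx1 and Emx2 were each above the relatives of their family named here.

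Zfpm1 (FOG1), a partner of GATA factors, was at 6.35, 5.90 and 5.97 FPKM on PD14 and at 4.59, 5.23 and 4.33 on PD16, with every PD16 library below every PD14 library and a difference of -0.31 (limma adjusted p = 0.0664). It was chosen after its values were seen. The antisense gene Wt1os, which shares no exon bases with Wt1, was at 2.64 to 4.49 FPKM and overlapped between PD14 and PD16, while every PD16 library was below every PD15 library (PD16 minus PD15 -0.25, limma adjusted p = 0.373), as for Wt1.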
